A study of Mus musculus with 2 samples.

Results

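Reg3b and Reg3g, which encode the secreted antibacterial lectins RegIIIβ and RegIIIγ, are 2 of the 31053 genes counted in 2 single-cell RNA sequencing libraries of mouse colon epithelium. They were taken by symbol from both count matrices, and were picked because their summed levels were already known to differ between the libraries, so those levels are given as a description. For the GFP library, mice of the genotype c-Kit-creERT2;Rosa26-mTG had tamoxifen by 1 intraperitoneal injection, at 1 mg/20 g. In these mice a tamoxifen-dependent recombinase made from the Kit gene switches on a GFP reporter in cells with Kit activity and in their progeny, and GFP-positive cells were sorted. For the whole epithelium library the labels give untreated mice of the genotype c-Kit-creERT2, with no reporter allele listed. Both groups thus share the c-Kit-creERT2 allele and the colon as source, and differ together in reporter allele, tamoxifen, sort and library, which cannot be told apart. There is 1 library per group, the labels do not say how many animals each holds, and no difference has a replicate check.

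The gut epithelium secretes RegIIIβ and RegIIIγ into the mucus, where they bind cell wall components of bacteria and kill or hold off part of the flora. In the mouse their genes are induced by microbial signals through MyD88 and by interleukin-22 acting through the transcription factor STAT3 in epithelial cells. They are known as products of enterocytes, Paneth and goblet cells of the small intestine, with lower and more inducible expression in the colon.

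Both genes lie in the Reg gene cluster of chromosome 6 (build GRCm38, the assembly of mm10). Reg3b (ENSMUSG00000071356) spans chr6:78370657-78373466 on the forward strand and Reg3g (ENSMUSG00000030017) chr6:78466269-78468872 on the reverse strand. The promoter sequences, 250 bases before to 50 bases after the RefSeq start (GRCm38.p6), are shown because the 2 genes were correlated from cell to cell. Capitals mark matches, on either strand, to the STAT-type motif TTCNNNGAA and to the TATA-box hexamer TATAAA. The windows are chr6:78370635-78370934 (forward strand) for Reg3b and chr6:78468825-78469124 (reverse strand) for Reg3g. The 2 annotations differ for Reg3b, whose gene span above begins at 78370657. Nearly all of its window, the motif matches included, thus lies inside that span. Positions below are counted from the RefSeq start.
Reg3b: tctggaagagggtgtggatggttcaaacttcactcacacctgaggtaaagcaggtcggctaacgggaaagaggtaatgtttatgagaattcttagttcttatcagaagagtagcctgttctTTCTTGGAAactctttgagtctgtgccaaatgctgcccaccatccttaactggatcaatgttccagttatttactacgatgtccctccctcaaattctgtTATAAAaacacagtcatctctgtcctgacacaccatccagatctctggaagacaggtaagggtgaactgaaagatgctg
Reg3g: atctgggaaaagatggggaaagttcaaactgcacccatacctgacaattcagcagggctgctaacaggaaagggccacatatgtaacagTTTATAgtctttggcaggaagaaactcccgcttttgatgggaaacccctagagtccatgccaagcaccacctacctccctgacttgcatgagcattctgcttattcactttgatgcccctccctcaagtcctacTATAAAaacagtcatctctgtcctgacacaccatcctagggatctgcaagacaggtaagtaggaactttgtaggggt
The Reg3b window held 1 match to TTCNNNGAA, the bases TTCTTGGAA starting 129 bases before the start, and a TATAAA starting 29 bases before it. The Reg3g window held no match to TTCNNNGAA, a TATAAA starting 27 bases before the start and a reverse-strand match beginning 161 bases before it. Among 32851 promoters of the same length, 8.30% held TTCNNNGAA and 13.6% held TATAAA. The 2 windows were identical at 71.4% of 294 aligned bases and shared the unbroken 29-base run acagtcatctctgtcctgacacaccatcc, which spans the start in both genes and occurs in 0 promoters of other genes. Of the 7 Reg family promoters in the table, those of Reg3b and Reg3d held TTCNNNGAA. A match is a description of letters and says nothing of binding.

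The transcripts of the 2 genes are 783 and 771 bases long and identical at 74.4% of 739 aligned bases. Their longest shared run is 35 bases, and 17 bases within the last 300, where reads of a 3' method fall. The assignment of reads between them was the authors'. A UMI (unique molecular identifier) counts 1 captured transcript, and levels are given as CPM, UMIs of a gene per 1000000 UMIs of all genes.

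The filter kept 5767 of 13575 barcodes (42.5%) in the GFP library and 7762 of 13967 (55.6%) in the whole epithelium library, with medians of 15821 and 14160 UMIs per cell, and 60 barcode sequences occurred in both lists. The matrices and barcode lists are crossed in the records. Each matrix was given to the sample whose barcode list has its size, and every direction below rests on that and would turn with the reverse assignment. The epithelial markers Epcam and Krt8 were seen in 99.2% and 100% of kept GFP cells and in 97.6% and 99.5% of kept whole epithelium cells. Ptprc, the leukocyte marker, was seen in 1.51% and 4.06%. The 12 T and NK cell markers summed to 7.07 CPM in the GFP library and 168.4 CPM in the whole epithelium library, and the haemoglobin genes to 0.322 and 106.2 CPM. Of 38 clusters, 31 drew over 95% of their cells from 1 library, so a cluster and its library can seldom be separated.

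Reg3b was one of the abundant transcripts of the whole epithelium library and was several times lower in the GFP library, as was Reg3g by a smaller factor. Over all kept cells, Reg3b had 139113 UMIs in the GFP library, or 1282 CPM (95% Poisson interval 1275 to 1288), and 1299816 UMIs in the whole epithelium library, or 9423 CPM (9407 to 9440). Reg3g had 58438 UMIs, or 538.4 CPM (534.0 to 542.8), in the GFP library and 228723 UMIs, or 1658 CPM (1651 to 1665), in the whole epithelium library. Both genes were lower in the GFP library. The log2 ratio of GFP over whole epithelium was -2.88 (-2.89 to -2.87) for Reg3b and -1.62 (-1.64 to -1.61) for Reg3g, against a median of -0.02 over the 13843 genes with at least 50 UMIs. Of those genes, 7.76% were lower in the GFP library by at least 2-fold, as both members were, and the members were picked on this contrast. Intervals here and below are for counting error and cover neither animals nor library preparation.

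The rest of the Reg family was scarce in both libraries, apart from Reg4. Reg4, a lectin of deep crypt secretory and goblet cells, was at 226.3 CPM in the GFP library and 143.2 CPM in the whole epithelium library (log2 ratio 0.66, 0.63 to 0.69), a difference in the opposite direction to the 2 members. Reg3a, the third RegIII lectin of this cluster, had 28 UMIs in the GFP library and 205 UMIs in the whole epithelium library (log2 ratio -2.53, -3.15 to -1.95). Reg1, known from pancreas and gut, had 138 and 308 UMIs (-0.81, -1.11 to -0.52). Reg2 had 3 UMIs in the GFP library and 20 UMIs in the whole epithelium library (-2.39, -4.78 to -0.64). Reg3d had 0 and 4 UMIs, where a count of 0 allows up to 0.0276 CPM (3 UMIs in the library), and no fold is given. Reg3b and Reg3g thus held nearly all RegIII transcripts in both libraries.

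The 2 genes were detected in most cells of every class, T/NK-like cells included, and the T/NK-like median for Reg3b was lower in the GFP library than in the whole epithelium library. The T/NK-like cells, taken here as the class that should lack both genes, also held epithelial RNA. Their colonocyte, goblet and T/NK markers summed to 19039, 13290 and 3575 CPM in the GFP library and to 7204, 2003 and 14571 CPM in the whole epithelium library. Epithelial markers thus exceeded their own markers in the GFP library, and the part of this in their Reg3b and Reg3g was not tested. T/NK-like cells had a median of 2 Reg3b UMIs per cell in the GFP library (61 cells, median depth 1897 UMIs) and 5 in the whole epithelium library (246 cells, median depth 4200 UMIs). A Reg3b UMI was found in 83.6% of these cells in the GFP library and 99.6% in the whole epithelium library, against 89.1% (88.3 to 89.9) and 99.2% (99.01 to 99.41) of all kept cells, whose median depths were 15821 and 14160. For Reg3g the T/NK-like shares were 65.6% and 56.9%, against 69.2% and 75.2% of all kept cells. After each cell was thinned to 1000 UMIs, Reg3b was found in 40.0% (38.7 to 41.2) of kept GFP cells and 64.5% (63.4 to 65.5) of kept whole epithelium cells. The T/NK-like shares at that depth were 59.0% and 70.7%, above those of all kept cells. Thinned Reg3g shares were 26.1% and 36.6% of all kept cells, against 37.7% and 25.6% of T/NK-like cells. Shares of cells with any UMI are therefore not read as expression here, apart from that of Reg3g in the whole epithelium library, and the upper part of the distribution carries the results.

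The number of Reg3b UMIs in the middle cell hardly changed with the depth of the cell, while the upper part of the distribution did. In the GFP library the median was 2 UMIs in each of the 4 depth classes from 1000 to 20000 UMIs, 3 between 20000 and 50000, and 10 above that. In the whole epithelium library the medians were 7, 9, 9, 7 and 8 in the same 5 classes and 29 above 50000 UMIs. The 90th percentile went with depth, at 5 UMIs in the shallowest and 312 in the deepest GFP cells and at 23 and 4069 in those of the whole epithelium library. Most cells of each library thus sat at a low count near that of the T/NK-like cells, and a minority stood far above it.

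**Figure D1:**
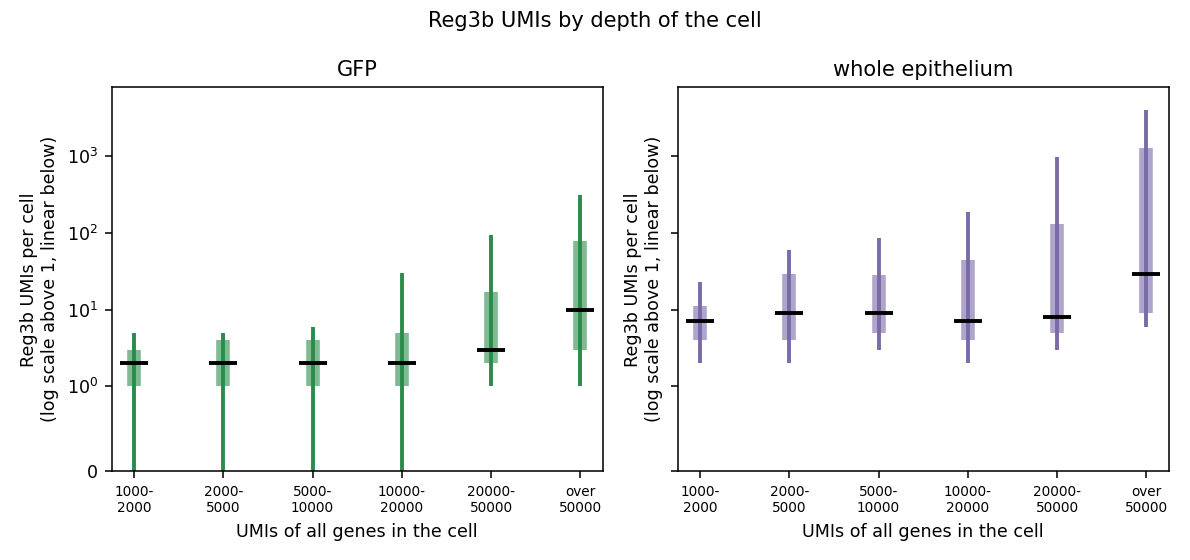
Reg3b UMIs per cell (vertical axis, logarithmic above 1) by the total UMIs of the cell, for the GFP library (left) and the whole epithelium library (right). Black bars are medians, thick bars the middle 50% and thin bars the 10th to 90th percentile of cells. The medians stay at 2 to 3 and at 7 to 9 up to 50000 UMIs, while the 90th percentiles reach 312 and 4069.

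The transcripts of both genes were held by few cells in each library. The top 10% of cells held 85.0% of Reg3b UMIs in the GFP library and 87.1% in the whole epithelium library, and 80.8% and 87.3% of Reg3g UMIs. It took 124 cells (2.15%) of the GFP library and 199 cells (2.56%) of the whole epithelium library to make up 50% of the Reg3b UMIs. The concentration was thus close in the 2 libraries although the levels were not. The cell with most Reg3b had 2996 UMIs of it among 48791 (6.14%) in the GFP library and 13116 among 181568 (7.22%) in the whole epithelium library. As a share of 1 cell's UMIs, Reg3b reached 6.72% and 15.0%, and Reg3g 2.32% and 5.60%.

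High cells were fewer and lower in the GFP library. At least 50 Reg3b UMIs were counted in 510 GFP cells (8.84%, 8.12 to 9.61) and in 1694 whole epithelium cells (21.8%, 20.9 to 22.8). T/NK-like cells reached 50 in 0 of 61 cells of the GFP library (exact upper bound 5.87%) and in 10 of 246 (4.07%) of the whole epithelium library. These cells are shallow, and of all 959 GFP cells with 1000 to 2000 UMIs 0% reached 50. The GFP count of T/NK-like cells thus cannot show that 50 UMIs parts expression from background. At least 1000 Reg3b UMIs were counted in 11 GFP cells (0.191%) and 386 whole epithelium cells (4.97%). For Reg3g, at least 50 UMIs were counted in 5.32% (4.76 to 5.93) of GFP cells and 9.74% (9.09 to 10.4) of whole epithelium cells.

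**Figure D2:**
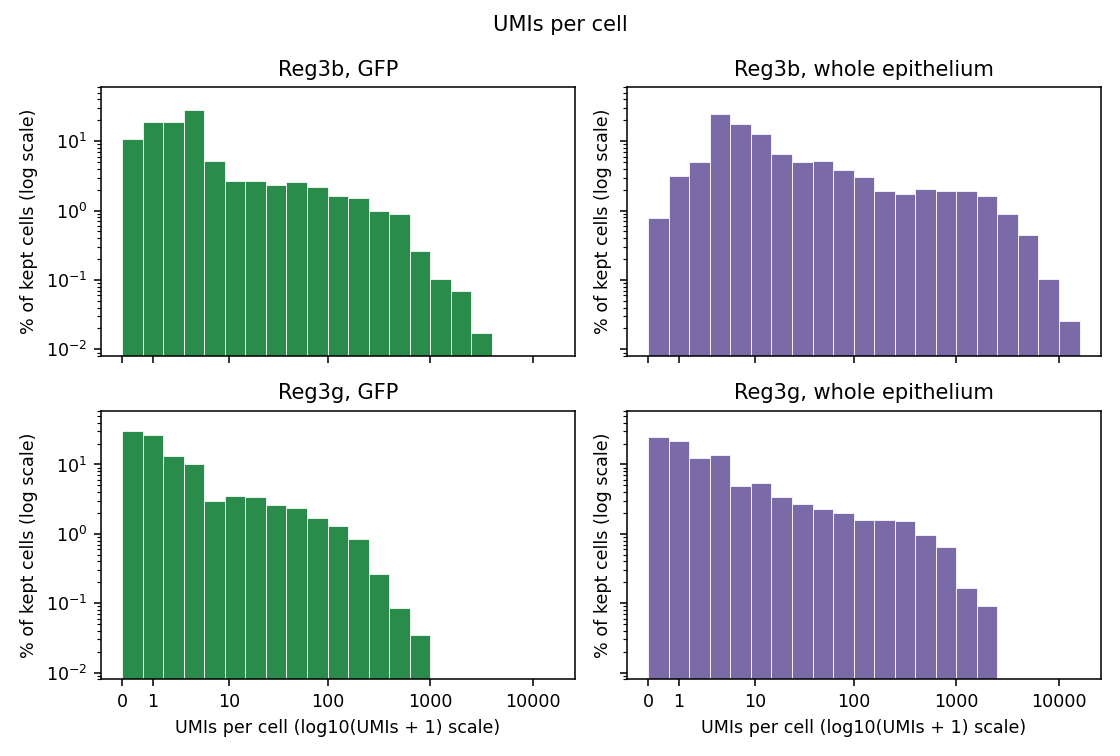
Share of kept cells (vertical axis, logarithmic) by UMIs per cell (horizontal axis, log10 of UMIs plus 1, in bins of equal width) for Reg3b (top) and Reg3g (bottom) in the GFP library (left) and the whole epithelium library (right). Each panel has a peak at low counts and a long upper tail, which ends at 2996 and 13116 UMIs for Reg3b and at 665 and 2407 UMIs for Reg3g.

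High cells occurred in all 3 large epithelial classes. Among cells with at least 10000 UMIs, 12.4% of colonocyte-like, 15.9% of stem/TA-like and 12.97% of goblet-like GFP cells had at least 50 Reg3b UMIs. The shares were 31.0%, 37.1% and 26.3% in the whole epithelium library. Stem/TA-like joins the clusters with crypt stem cell markers and those with division markers. The 57 GFP cells with most Reg3b were 18 colonocyte-like, 16 stem/TA-like, 5 goblet-like and 18 unnamed cells. The 77 whole epithelium cells with most Reg3b were 42 colonocyte-like, 20 stem/TA-like, 2 goblet-like and 13 unnamed cells. No tuft-like, enteroendocrine-like or T/NK-like cell was among either set.

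Among the 3 large named classes of the main clustering, summed Reg3b was highest in colonocyte-like cells, the absorptive cells. Next were stem/TA-like cells and lowest goblet-like cells, in both libraries. In the 1151 colonocyte-like GFP cells Reg3b was at 1502 CPM (1487 to 1517), and in the 2714 of the whole epithelium library at 12799 CPM (12768 to 12830). In 927 stem/TA-like GFP cells it was at 1232 CPM (1219 to 1245), and in the 657 of the whole epithelium library at 11689 CPM (11643 to 11734). In 1054 goblet-like GFP cells it was at 774.6 CPM (764.4 to 784.9), and in the 1141 of the whole epithelium library at 3378 CPM (3353 to 3404). These goblet-like levels were not above those of T/NK-like cells in either library, so summed CPM does not set this class apart from background. At least 50 Reg3b UMIs were counted in 103 goblet-like GFP cells and 289 of the whole epithelium library. The class order colonocyte-like, stem/TA-like, goblet-like was thus the same in both libraries for Reg3b with these clusters. It rests on which clusters are joined in a class, which the intervals do not cover, and class levels are not given at other resolutions. By the share of high cells among deeper cells, stem/TA-like stood above colonocyte-like cells in both libraries. Unnamed clusters of deeper cells stood above all 3 classes in the GFP library, at 1803 CPM, and were at 7233 CPM in the whole epithelium library. Reg3g in these classes was at 514.7, 578.6 and 385.9 CPM in the GFP library and at 2216, 2021 and 940.7 CPM in the whole epithelium library. Stem/TA-like cells thus led for Reg3g in the GFP library and colonocyte-like cells in the whole epithelium library. As nearly every cluster belongs to 1 library, each class was made of different clusters in the 2 libraries. Colonocyte-like cells came mostly from c2 and c18 in the GFP library and from c3, c5, c11, c15, c19 and c21 in the whole epithelium library. Stem/TA-like cells came from c7 and c14 and from c12 and c22, and goblet-like cells from c6, c16 and c24 and from c10, c25, c26, c27 and c30.

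Within each of the 4 classes with at least 100 cells in both libraries, both genes were lower in the GFP library. For Reg3b the log2 ratio was -3.09 (-3.11 to -3.08) in colonocyte-like, -3.25 (-3.26 to -3.23) in stem/TA-like, -2.12 (-2.15 to -2.10) in goblet-like and -4.29 (-4.48 to -4.12) in enteroendocrine-like cells. For Reg3g it was -2.11 (-2.13 to -2.08), -1.80 (-1.83 to -1.78), -1.29 (-1.32 to -1.25) and -3.40 (-3.68 to -3.13) in the same classes. The ratio was nearer to 0 for Reg3g than for Reg3b in all 4. In goblet-like cells, taking off the T/NK-like mean per cell gave -1.73 for Reg3b and -1.16 for Reg3g. The shares of tested genes lower by at least 2-fold were 8.12% in colonocyte-like, 3.34% in stem/TA-like, 3.75% in goblet-like and 4.73% in enteroendocrine-like cells, and both members were among them in each class, on the contrast they were picked for. Where clusters were made at resolution 0.5, 542 GFP and 646 whole epithelium cells were stem/TA-like and the direction turned there, to 0.31 for Reg3b and 1.501 for Reg3g. Other settings moved ratios by over 1.5 times without turning them. In stem/TA-like cells Reg3b came to -2.17 and Reg3g to -0.81 with clusters made without the Reg family, and to -2.15 and -0.82 without the 5% of cells with most UMIs, which also put colonocyte-like Reg3g at -1.51. Mitochondrial UMIs up to 50% put stem/TA-like Reg3b at -2.61, and cells of at least 3000 UMIs and 1000 genes put it at -2.64 and Reg3g at -1.17. Of 16 tested genes that rise with tissue dissociation, 9 were lower by at least 2-fold in stem/TA-like cells. In goblet-like cells 8 were, in enteroendocrine-like cells 6 and in colonocyte-like cells 3, beside the shares of all tested genes given above. Their part was not tested.

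**Figure D3:**
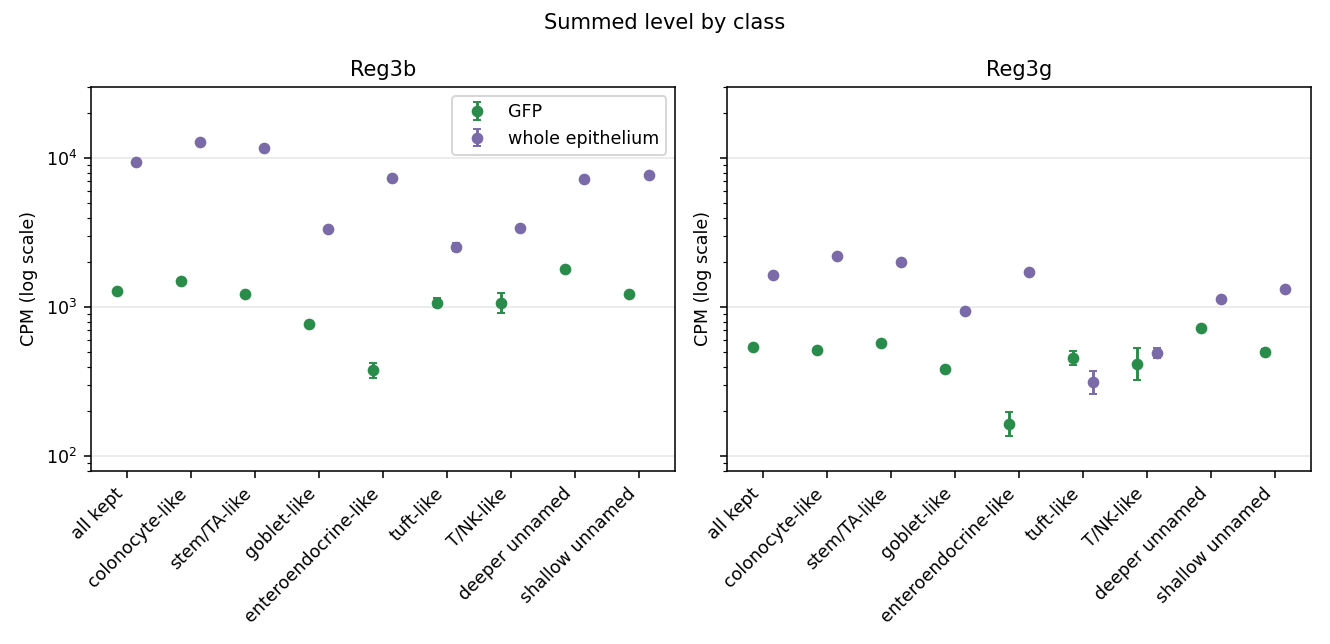
Summed level in CPM (vertical axis, logarithmic) of Reg3b (left) and Reg3g (right) by class, with GFP points left of whole epithelium points and exact Poisson 95% intervals, mostly smaller than the points. Reg3b lies lower in the GFP library in every class shown. For Reg3g the tuft-like GFP point (456.2 CPM) lies above that of the whole epithelium library (313.4 CPM), and the T/NK-like intervals overlap.

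Enteroendocrine-like cells, the hormone-producing cells, held no high cell in the GFP library. Reg3b there was at 376.9 CPM (332.6 to 425.6) with a median of 2 and a maximum of 18 UMIs in 108 cells, against 7395 CPM (7280 to 7512) with a median of 12 and a maximum of 2998 UMIs in 320 whole epithelium cells. The GFP level is below that of the GFP T/NK-like cells (1071 CPM), which are shallower (median depth 1897 against 3300 UMIs). The class also held no high cell, but its depth hardly allows one. Of all GFP cells with 2000 to 5000 UMIs, 0.118% had at least 50 Reg3b UMIs. Its GFP level thus cannot be told apart from background, and the enteroendocrine-like ratio may have background as its numerator. With each cell at equal weight the Reg3b ratio was -3.49, and with mitochondrial UMIs up to 50% it was -3.32 for Reg3b and -2.35 for Reg3g. Of the whole epithelium cells, 92 lay in c28 and 86 in c29, which are shallow clusters. In c23, the enteroendocrine-like cluster that both libraries filled, Reg3b was at 401.2 CPM in 98 GFP cells and 8972 CPM in 109 whole epithelium cells, with medians of 2 and 5 UMIs. In c23, 0 GFP cells and 8 whole epithelium cells had at least 50 Reg3b UMIs.

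Other clusters that both libraries filled gave the same direction for Reg3b. In the goblet-like cluster c6, led by Hpd, Spdef and Retnlb, Reg3b was at 874.4 CPM in 524 GFP cells and 7640 CPM in 40 whole epithelium cells, with medians of 3 and 6.5 UMIs. Reg3g there was at 465.1 and 1547 CPM. In tuft-like cells, the chemosensory cells of cluster c31, Reg3b was at 1071 CPM in 41 GFP cells and 2534 CPM in 36 whole epithelium cells, and Reg3g at 456.2 and 313.4 CPM, the one class where Reg3g was higher in the GFP library. The medians in tuft-like cells were 2 and 6 Reg3b UMIs and 1 Reg3g UMI in each library, close to the 2 and 5 Reg3b UMIs and the 1 Reg3g UMI of T/NK-like cells. The goblet-like Reg3b ratio was -2.83 when each cell had equal weight.

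Within a class, clusters differed widely. In the GFP library Reg3b was highest in c18, colonocyte-like cells led by Car1, Cyp2c55 and the bile acid transporter genes Slc10a2 and Slc51a, at 3427 CPM. Next were c8, an unnamed cluster led by Pla2g4c and gasdermin C genes, at 2679 CPM, and c14, cycling stem/TA-like cells, at 2207 CPM. These 3 clusters held 19.0%, 24.2% and 21.2% of the Reg3b UMIs of the GFP library in 5.91%, 8.81% and 6.49% of its cells. The lowest were c24, goblet-like cells led by Reg4, at 185.4 CPM, and c7, stem/TA-like cells led by Trf, Hoxd13 and Gsta3, at 391.3 CPM.

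The highest cluster of the whole epithelium library was c3, colonocyte-like cells led by Fabp6, Slc51a and Car1, at 23471 CPM, with 38.6% of the library's Reg3b UMIs in 9.59% of its cells. Fabp6, the ileal bile acid binding protein, and Slc51a, a bile acid exporter, are best known from the ileum. Next were c4 at 16264 CPM and c12, cycling stem/TA-like cells, at 16199 CPM. Cluster c4 was unnamed, with haemoglobin genes first among its leading genes, at 296.0 CPM against 3.13 CPM in c3, and Reg3b also among them. The lowest were c13, an unnamed cluster led by Fxyd4 and B3gnt7, at 271.7 CPM, c22, stem/TA-like cells led by Fut9 and Trf, at 320.8 CPM, and c27, goblet-like cells, at 383.9 CPM. The span from lowest to highest cluster was thus wider in the whole epithelium library than in the GFP library, and stem/TA-like cells stood at both ends of it. The clusters were made with Reg3b among the variable genes, so these levels describe them and test nothing.

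A few whole epithelium clusters carried Reg3b in nearly every cell at a middling count, unlike the rest. In c26, shallow goblet-like cells, the 10th percentile, median and 90th percentile were 26, 52 and 94 UMIs at a median depth of 3965. In c29, shallow enteroendocrine-like cells, they were 21.5, 49.5 and 134, and in c30, goblet-like cells led by Gm26870 and Mptx1, 7.8, 95 and 164. By contrast they were 4, 42 and 2259 in c3. No GFP cluster had a 10th percentile above 1.

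**Figure D4:**
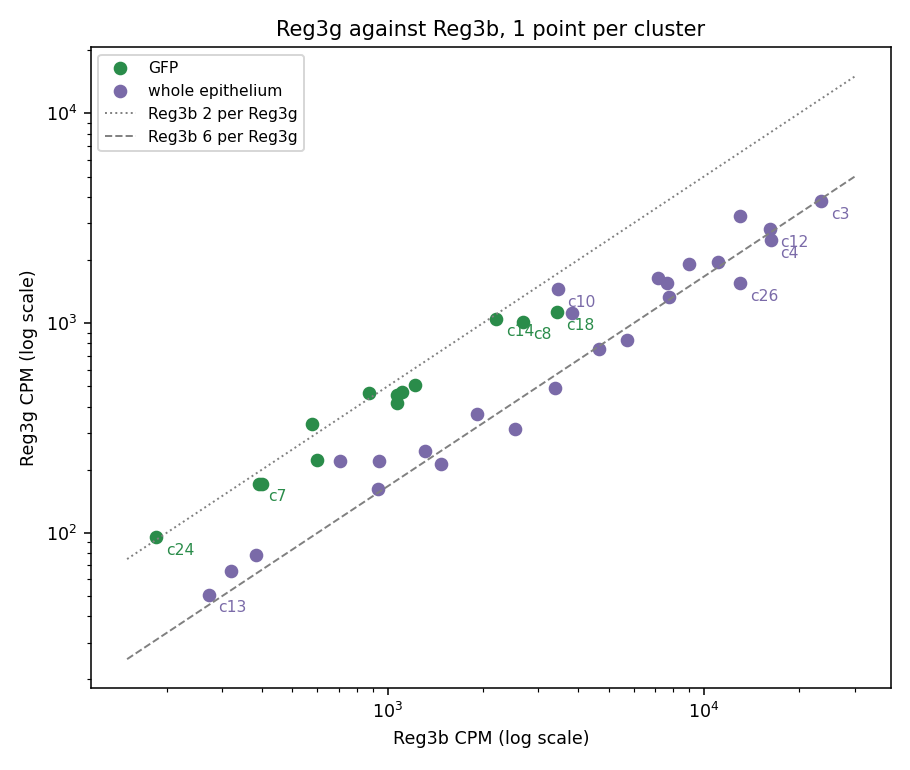
Reg3g against Reg3b (CPM, both axes logarithmic), 1 point per cluster with at least 20 cells of a library, for 13 GFP and 25 whole epithelium clusters. The dotted and dashed lines mark 2 and 6 Reg3b UMIs per Reg3g UMI, and the GFP points lie near the dotted line while most whole epithelium points lie near the dashed one.

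The balance of the 2 genes differed between the libraries as well as their level. There were 2.38 (2.36 to 2.40) Reg3b UMIs per Reg3g UMI in the GFP library and 5.68 (5.66 to 5.71) in the whole epithelium library, or 2.34 and 5.60 per base of transcript. By class the number was between 2.01 in goblet-like and 2.92 in colonocyte-like cells of the GFP library. It was between 3.59 in goblet-like and 8.08 in tuft-like cells of the whole epithelium library, so the ranges over named classes did not overlap. By cluster it was between 1.74 (c9) and 3.04 (c18) in the GFP library and between 2.37 (c10) and 8.43 (c26) in the whole epithelium library. Among whole epithelium clusters only c10, goblet-like cells led by Muc2 and Retnlb, lay within the GFP range. In cells with at least 50 Reg3b UMIs it was 2.80 and 5.80, and in cells with fewer 1.38 and 4.03. The 2 libraries thus differed in this ratio on both sides of the cut at 50 Reg3b UMIs. The cut is on Reg3b itself, which raises the ratio above it and lowers it below, so high and low cells are not compared. In T/NK-like cells the ratio was 2.57 and 6.88, near that of each library as a whole.

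The 2 genes varied together from cell to cell. Over ln(1 + UMIs per 10000), Pearson's r was 0.76 in colonocyte-like GFP cells and 0.84 in those of the whole epithelium library, 0.83 and 0.93 in stem/TA-like cells, and 0.66 and 0.79 in goblet-like cells. Over all kept cells it was 0.61 (n = 5767) and 0.81 (n = 7762), and over those with at least 10000 UMIs 0.81 and 0.89. It was -0.01 in the 108 enteroendocrine-like and -0.12 in the 61 T/NK-like GFP cells, classes that held no cell with 50 Reg3b UMIs, against 0.82 and 0.47 in the whole epithelium library. Of the 510 GFP cells with at least 50 Reg3b UMIs, 465 had at least 10 of Reg3g, as had 1352 of 1694 in the whole epithelium library. Across clusters r of log2(CPM + 1) was 0.98 over 13 GFP clusters and 0.98 over 25 whole epithelium clusters. The cells of a library share its preparation and background, so these values are descriptions.

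No other gene came near that likeness in colonocyte-like cells. Ranked by the smaller r of the 2 libraries among 7760 genes seen in at least 10% of cells, the 10 genes most like Reg3b included Reg3g, Osr2, Prkg2, Rps12, Rps19, Dmbt1, Rpl37a, Sult1c2 and Rps2. After Reg3g the values were 0.21 to 0.34 in the GFP library and 0.19 to 0.32 in the whole epithelium library, which in sparse counts is no finding. Dmbt1, a secreted mucosal defence glycoprotein, had 0.34 and 0.20. For Reg3g, the list after Reg3b was Dmbt1 (0.37 and 0.30), 7 ribosomal protein genes and Osr2. The 5 highest for Reg3b included Reg3g, Dmbt1, Mgst1 and Ugt2b5 in the GFP library and were Reg3g, Slc51a, Mal, Tifa and Osr2 in the whole epithelium library. For Reg3g they were Reg3b, Dmbt1, Mgst1, Ugt2b5 and Rps2 in the GFP library and Reg3b, Mal, Slc51a, Tifa and Gmds in the whole epithelium library. Slc51a had 0.18 in the GFP library and 0.41 in the whole epithelium library.

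Stem/TA-like cells had closer followers of Reg3b in both libraries. Among the genes after Reg3g were Tmsb4x, with r of 0.38 in 927 GFP cells and 0.48 in 657 whole epithelium cells, the fatty acid binding protein gene Fabp2 (0.41 and 0.36) and Dmbt1 (0.36 and 0.61). Cdx2, a transcription factor of intestinal identity, had 0.34 and 0.42. The most opposite genes were Adh1, an alcohol dehydrogenase (-0.45 and -0.60), Hoxb13, a homeobox gene of the distal large intestine (-0.44 and -0.54), and Oit1 (-0.43 and -0.60). These stem/TA-like genes were named after their values had been seen. Across clusters the genes most like Reg3b after Reg3g included Aamdc, Ugt2b5 and Prkg2 in the GFP library (0.89 to 0.91) and Isx, B4galnt2, Pdk4 and Prkg2 in the whole epithelium library (0.77 to 0.80). Hoxb13 was the gene most opposite to Reg3b across the 13 GFP clusters, at -0.87.

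Hoxb13 was followed further, a choice made after its values had been seen. The split below uses the same cells, so its direction was largely set by that choice and it tests nothing. Reg3g, which is correlated with Reg3b, adds no separate support. In cells with at least 10000 UMIs, the summed level of Reg3b was lower in those with a Hoxb13 UMI than in those without, in each of 3 classes and in both libraries. In stem/TA-like GFP cells Reg3b was at 784.9 CPM (772.5 to 797.4) in 613 cells with a Hoxb13 UMI and 2211 CPM (2181 to 2242) in 267 without. It was at 5159 CPM in 313 cells with and 18512 CPM in 272 without in the whole epithelium library, with medians of 6 and 216 Reg3b UMIs. In colonocyte-like GFP cells it was at 858.1 CPM with and 1963 CPM without, and in those of the whole epithelium library at 5674 and 19669 CPM. The difference was smallest in goblet-like GFP cells, at 631.7 CPM with and 983.7 CPM without, against 1437 and 5432 CPM in the whole epithelium library. Reg3g followed the same order in all 6 pairs, with 291.9 CPM with and 673.4 CPM without in colonocyte-like GFP cells and 1058 and 3354 CPM in those of the whole epithelium library. Median Reg3b UMIs with and without were 2 and 19 in stem/TA-like GFP cells, a wider fold than in the summed levels. The medians were closer in the other classes, at 2 and 3 in colonocyte-like and 3 and 3 in goblet-like GFP cells. In the whole epithelium library they were 7 and 23 in colonocyte-like and 7 and 11 in goblet-like cells. In goblet-like GFP cells the shares with at least 50 Reg3b UMIs had overlapping intervals, 11.3% (8.47 to 14.7) with and 15.0% (11.5 to 19.1) without. Median depths with and without were 26081 and 28705 in stem/TA-like GFP cells and 29567 and 35157 in those of the whole epithelium library. The other listed Hox genes of the B cluster had positive r with Reg3b in stem/TA-like cells. In the GFP library r was between 0.05 (Hoxb9) and 0.29 (Hoxb7), with Hoxb6 at 0.27. In the whole epithelium library it was between 0.21 (Hoxb8) and 0.34 (Hoxb6). Hoxd13 had -0.21 in the GFP library and -0.22 in the whole epithelium library.

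**Figure D5:**
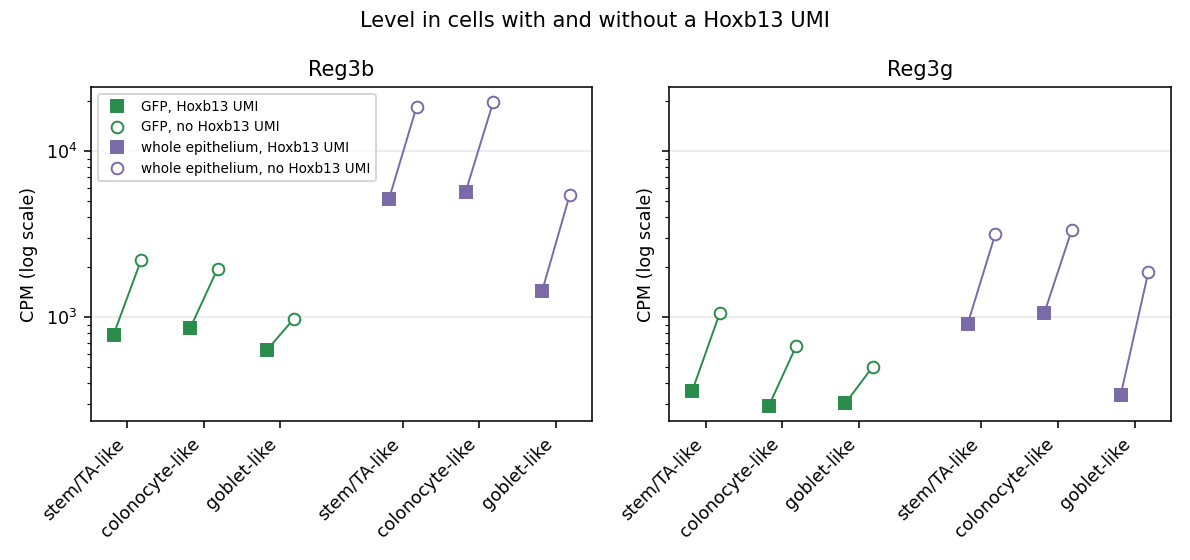
Reg3b (left) and Reg3g (right) in CPM (vertical axis, logarithmic) in cells of at least 10000 UMIs with a Hoxb13 UMI (squares) and without one (circles), by class, with the GFP library left of the whole epithelium library. In all 6 pairs of each gene the circle lies above the square, least so in goblet-like GFP cells for Reg3b (631.7 CPM with and 983.7 CPM without).

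The receptors and signal carriers that act upstream of RegIII genes differed little between the libraries as a group over all kept cells. Of 21 listed genes of interleukin-22, interleukin-6 and STAT3 signalling, 17 had at least 50 UMIs, of which 1 was higher and 0 were lower in the GFP library by at least 2-fold. Their median log2 ratio was -0.05, against shares of 3.09% higher and 7.76% lower and a median of -0.02 over all tested genes. Il22ra1, the epithelial interleukin-22 receptor chain, was at 0.931 CPM in the GFP library and 0.928 CPM in the whole epithelium library, and Stat3 at 62.6 and 64.2 CPM. The highest ratio was that of Cebpd, a transcription factor induced by STAT3, at 119.5 CPM in the GFP library and 53.6 CPM in the whole epithelium library (log2 ratio 1.16). Socs1, an inhibitor of cytokine signalling, was at 13.1 CPM in the GFP library and 19.8 CPM in the whole epithelium library (-0.60). Il22 itself had 0 UMIs in both libraries, which allows up to 0.0276 CPM in the GFP library and 0.0217 CPM in the whole epithelium library. In stem/TA-like cells 2 of 15 tested members were higher and 0 lower by at least 2-fold, where 3.74% of all tested genes were higher and 3.34% lower. In enteroendocrine-like cells 0 of 12 were higher and 2 lower, against 2.78% and 4.73% of all tested genes. Colonocyte-like cells had 0 of 16 higher and 1 lower, against 2.33% and 8.12%, and goblet-like cells 2 of 16 higher and 1 lower, against 2.32% and 3.75%.

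Genes that sense bacteria were also near the median of all genes over all kept cells. Of 20 listed genes of Toll-like receptor and MyD88 sensing, 19 were tested, of which 1 was higher and 1 lower in the GFP library by at least 2-fold. This stands against 3.09% and 7.76% of all tested genes, and the median log2 ratio of the list was 0.01. Myd88, the shared adaptor, was at 18.3 CPM in the GFP library and 24.4 CPM in the whole epithelium library. The receptor of flagellin, Tlr5, was at 0.396 and 1.68 CPM (log2 ratio -2.09), and the peptidoglycan sensor Nod2 at 1.58 and 0.768 CPM (1.04). Both were rare, with 43 and 171 UMIs in the GFP library. By class, colonocyte-like cells had 0 of 19 higher and 1 lower (2.33% and 8.12% of all tested genes), with a median of -0.41 against -0.18. Stem/TA-like cells had 1 of 18 higher and 1 lower (3.74% and 3.34%), and goblet-like cells 0 of 18 higher and 0 lower (2.32% and 3.75%). Enteroendocrine-like cells had 0 of 8 higher and 2 lower (2.78% and 4.73%).

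Other genes known to respond to interleukin-22 differed in direction among themselves and between classes. Of 19 listed and tested genes, 8 were higher and 0 lower in the GFP library by at least 2-fold, against 3.09% and 7.76% of all tested genes, with a median log2 ratio of 0.67. Nos2, the inducible nitric oxide synthase, was at 17.1 CPM in the GFP library and 2.57 CPM in the whole epithelium library (2.73), and the neutrophil attractant Cxcl5 at 2.79 and 0.674 CPM (2.05). The 4 genes below 0 were the serum amyloid genes Saa1, at 1072 CPM in the GFP library and 1944 CPM in the whole epithelium library (-0.86), Saa2 (-0.91) and Saa3 (-0.38), and the receptor gene Osmr (-0.75), whose counting interval reached 0.02. In stem/TA-like cells 8 of 15 tested were higher and 0 lower, against 3.74% and 3.34% of all tested genes, and in colonocyte-like cells 1 of 14 was higher and 4 lower, where 2.33% of all tested genes were higher and 8.12% lower. In enteroendocrine-like cells 2 of 6 were higher and 0 lower against 2.78% and 4.73% of all tested genes, and in goblet-like cells 5 of 14 were higher and 2 lower against 2.32% and 3.75%.

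Of 24 other listed secreted defence genes 19 were tested, of which 11 were higher and 1 lower in the GFP library by at least 2-fold, against 3.09% and 7.76% of all tested genes, with a median log2 ratio of 1.12. The goblet cell ribonuclease Ang4 was at 1130 CPM in the GFP library and 9.86 CPM in the whole epithelium library (6.84), and the goblet cell product Retnlb at 8540 and 209.7 CPM (5.35). The lysozyme of macrophages, Lyz2, was at 0.101 and 1.77 CPM (-4.13), and Wfdc2, an epithelial protease inhibitor, at 309.5 and 456.4 CPM (-0.56). The goblet marker list summed to 16172 CPM in the GFP library and 7183 CPM in the whole epithelium library.

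Genes of other gut regions and of tissue handling were looked at beside the members. Of 12 small intestinal enterocyte genes 8 were tested, of which 0 were higher and 4 lower in the GFP library by at least 2-fold, against 3.09% and 7.76% of all tested genes, with a median log2 ratio of -1.44. The lowest were the brush border enzyme Sis at 0.322 CPM in the GFP library and 2.74 CPM in the whole epithelium library (-3.09) and Fabp6 at 27.2 and 202.0 CPM (-2.89), while Rbp2 was at 31.6 and 18.8 CPM (0.75). The 10 Paneth genes had 2 tested, Mmp7 at 2.25 and 3.31 CPM (-0.56) and Itln1 at 27.0 and 1.46 CPM (4.21), and the 6 defensin genes of the list had 1 UMI in the GFP library and 0 in the whole epithelium library. Of 10 pancreatic acinar genes, 1 was tested, Cela1, at 125.9 and 189.7 CPM (-0.59). Of 16 genes that rise with tissue dissociation, 0 were higher and 4 lower in the GFP library by at least 2-fold, beside the same shares of all tested genes, with a median of -0.86, a lowest ratio in Hspb1 (-1.69) and a highest in Ier3 (0.19). The part of these differences in the levels of Reg3b and Reg3g was not tested.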

How the data were processed

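The 2 single-cell libraries, GFP and whole epithelium, were made per the labels' protocols with the 3' v2 droplet chemistry of 10x Genomics from EDTA-released, enzymatically dissociated colon epithelium. The authors deposited raw UMI counts, 1 matrix per library, on build mm10. The submitters' processing notes name Cell Ranger 2.1.1 and the file headers version 3.1.0. Total counts were 150348319 UMIs in the GFP library and 164185392 in the whole epithelium library. The members, the gene lists and the markers were chosen with earlier results of these data known.

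Barcodes with at least 500 genes, 1000 UMIs and at most 25% mitochondrial UMIs were kept. Doublets were not called and stay in. Both libraries were clustered together (2000 variable genes, 30 principal components, 15 neighbours, leidenalg 0.10.2 at resolution 1.0, scanpy 1.11.5). Clusters were named from listed markers against the median cluster of their library, with at least 3 markers raised, and 27 of 38 were named. Haemoglobin genes were added as a competing class after the data had been seen, which left c1 unnamed, while c4 had no name with or without them. The class stem/TA-like holds stem and cycling clusters, and goblet-like holds goblet and deep crypt secretory ones.

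Counts were summed per library or class and scaled to 1000000. Sums have exact Poisson intervals at 95%, shares Clopper-Pearson intervals, and log2 ratios intervals from the exact binomial test conditional on both counts. These cover counting error only. With 1 library per group no test was run. A gene entered a comparison with at least 50 UMIs over both libraries. A gene at 0 in a library was set to 3 UMIs there for the counts of genes past 2-fold. The named genes were all Reg family members, the largest rises and falls of each list, and the genes most correlated with Reg3b and Reg3g by a fixed rank rule, of which some are not reported here. Others are marked in the text as chosen after their values were seen. Alternatives changed the filter, the total, the clustering, the weighting of cells and the thinning. The ratio step was tested on simulated counts. Thinning was checked on real GFP cells, only for the total left in each cell. The scaling before correlation was checked on a small simulated matrix, with a general correlation function.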

Additional observations from a re-analysis of the deposited data

Results flagged for a closer look

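Barcodes that the filter left out also held both genes, above the 3 UMIs that a count of 0 allows. In 7808 such barcodes of the GFP library Reg3b was at 556.4 CPM and Reg3g at 221.8 CPM, and in 6205 of the whole epithelium library Reg3b was at 4957 CPM and Reg3g at 858.0 CPM. Median depths were 4466.5 and 3021 UMIs and median mitochondrial shares 45.5% and 40.7%. Both genes were lower in the GFP library there too, and lower in each library than in its kept cells.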

How the results depend on the processing

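No paired analysis was possible because each group is 1 library and no test was run. Both genes stayed lower in the GFP library over all kept cells under the 8 alternatives run, with log2 ratios from -2.996 to -2.65 for Reg3b and -1.71 to -1.43 for Reg3g. In the order mitochondrial UMIs up to 50%, up to 10%, without the 5% of cells with most UMIs, equal weight per cell and cells of at least 10000 UMIs (added after the data had been seen), Reg3b gave -2.95, -2.996, -2.65, -2.69 and -2.90, and Reg3g -1.71, -1.68, -1.43, -1.47 and -1.65. With nuclear genes only in the total Reg3b gave -2.87. Of the class ratios given, 8 in the main analysis, those below 0 were 6 of 8 at resolution 0.5, where stem/TA-like Reg3b was 0.31 and Reg3g 1.501, and all of the 6 or 8 obtainable in the other 14 settings. The causes were not tested. The enteroendocrine-like ratio could not be given with mitochondrial UMIs up to 10%, with the deeper cell filters or after taking off the T/NK-like mean. Thinned shares for Reg3b were 43.1% with mitochondrial UMIs up to 10%, 30.5% with at least 3000 UMIs, 49.5% thinned to 3000 and 89.1% not thinned in the GFP library. In the whole epithelium library they were 67.8% and 61.0% with mitochondrial UMIs up to 50% and 10%, 57.3%, 76.3% and 99.2%. For Reg3g they were 23.9%, 28.7%, 21.1%, 36.4% and 69.2% in the GFP library under the same 5 settings, and 31.7%, 47.5% and 75.2% under the last 3 in the whole epithelium library. Reg3b per Reg3g was 2.27 with mitochondrial UMIs up to 10% and 2.46 without the deepest 5% in the GFP library, and 5.66 and 5.75 in the whole epithelium library. The top 10% of GFP cells held 81.6% of Reg3b with at least 3000 UMIs, and 83.4%, 80.2% and 76.0% of Reg3g with mitochondrial UMIs up to 50%, up to 10% and at least 3000 UMIs. In the whole epithelium library they held 86.8%, 86.4%, 83.6% and, without the deepest 5%, 84.8% of Reg3b, and 86.0% (up to 10%), 84.7% (at least 3000 UMIs) and 84.8% of Reg3g. Their correlation was 0.48, 0.58, 0.76, 0.59 and, by Spearman's rank in thinned cells, 0.53 in the GFP library, and 0.77, 0.83, 0.86, 0.79 and 0.72 in the whole epithelium library. Of the 10 genes named as most like Reg3b, few were among the 10 in the alternatives: 3 with all kept cells and 4 with thinned cells. Depth limits shares of cells with a UMI, which background sets, and rare genes such as Reg3d.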
